A study of Mus musculus with 7 samples.

Results

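The EGF receptor family and its ligands were followed through 9 genes, the receptors Egfr, Erbb2, Erbb3 and Erbb4 and the ligands Hbegf, Tgfa, Ereg, Btc and Nrg1. They were chosen by name, and their rows were read from a list of 33710 genes found in at least 1 of 7 single-cell matrices. Each matrix came from the mammary tumor of a different control mouse, an MMTV-PyMT;HK2 f/f animal on a C57BL/6 background. The MMTV promoter drives the polyoma middle T oncogene in mammary epithelium. Both copies of HK2 were floxed, the labels of these samples name no Cre, and the study gave tamoxifen to control mice too once a tumor was palpable. Tumors with HK2 deleted were not analysed here. The labels call the genotype wild type and place collection 3 months after the tumor could be felt, whereas the methods describe collection close to the endpoint. Mice 1 to 4 belong to a title series named CB and mice 5, 7 and 8 to one named WT, and what separates the series is not stated. No condition was compared. The question addressed was which cells of these tumors carried each receptor and each ligand.

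EGF receptor family proteins are receptor tyrosine kinases that signal in pairs. Egfr binds EGF, TGF-alpha, HB-EGF, betacellulin and epiregulin, and Erbb3 and Erbb4 bind neuregulins. Erbb2 has no known soluble ligand and acts as a partner of the others, whereas Erbb3 has little kinase activity of its own. The ligands are made as membrane proteins and are released by ADAM proteases, and in the mammary gland the family takes part in duct growth, lactation and tumor formation.

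Drop-seq counts each captured mRNA molecule through a unique molecular identifier (UMI). Of 37000 barcodes, the 15047 with 200 to 6000 genes counted as cells, with 1133 to 4780 cells and 962677 to 4471473 UMIs per mouse and a median of 527 to 694 UMIs per cell. At most 1 barcode sequence was shared by any pair of libraries. Lists of marker genes gave the clusters their names, each ending in "-like", and 13450 cells (89.4%) fell into 7 classes. These were 6176 tumor-like, 1698 hormone-sensing-like, 278 myoepithelial-like, 1029 fibroblast-like, 144 endothelial-like, 1920 macrophage-like and 2205 T/NK-like cells. A class entered with a mouse when that mouse had at least 10 of its cells, which left 5 mice for the myoepithelial-like class, 3 mice (4, 5 and 8) for the endothelial-like class and 7 for the others. Each class had UMIs of all markers of its own list, except that myoepithelial-like cells had 11 of 12, with none of Lgr6. This alone does not set a class apart, as tumor-like cells had UMIs of all 12 myoepithelial markers. Krt14 and Krt17 were at 149.7 and 178.2 CPM in myoepithelial-like cells, below the 546.3 and 287.1 CPM of tumor-like cluster 7. The other markers of that list but Lgr6 were higher there than in any tumor-like cluster. Markers of other lists were present too. An alternative fit left out cells with at least 2 different markers of another list. It did not use the tumor list, so the part of tumor markers was not tested. Myoepithelial-like cells held 14170 to 41849 CPM of the 14 tumor markers and 2140 to 4746 CPM of the 12 fibroblast markers per mouse. Endothelial-like cells held 910.5 to 3439 CPM of the 7 pericyte markers. A single library gave 59.4% of the hormone-sensing-like cells. The unit of level is CPM, counts per 1e6 UMIs of that class in that mouse. Levels were compared between classes for the same gene, never between genes.

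The depth differed widely between members. Over all cells, Hbegf had 8990 UMIs, Erbb3 432, Egfr 358, Erbb2 201, Btc 192, Nrg1 112, Tgfa 74, Ereg 31 and Erbb4 24. All 9 members passed the filter of at least 20 UMIs over the sums. Erbb4 (21 UMIs, 18 of them in tumor-like cells) and Ereg (30 UMIs, 17 of them in fibroblast-like cells) passed it only through the class with most of their UMIs, so their calls that involve that class follow in part from the filter. Where a class had no UMI of a gene, the limit that a count of 0 allows was set at 3 UMIs over the class. A fold given as "at least" sets the tumor-like level against this limit and leaves out the counting error of the tumor-like UMIs. That limit was 0.373 CPM in tumor-like cells and 30.9 CPM in endothelial-like cells, so little could be seen at the level of most receptors in the latter. Barcodes with under 200 genes served as a measure of free RNA, though cells with few genes can be among them, and gave a background level for each member (21950 barcodes and 2564216 UMIs).

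Classes were compared within mice by edgeR's quasi-likelihood test on the summed UMIs, blocked by mouse, and p-values were adjusted over 15970 genes (Benjamini-Hochberg). Changes are on the log2 scale. The SE beside a change is its size divided by the square root of the test's F statistic, as the fit gives no SE. With the TMM scaling of this test the median change of all genes was not 0. Against tumor-like cells that median was -0.24 in hormone-sensing-like, -0.75 in myoepithelial-like, -0.42 in fibroblast-like, -1.27 in endothelial-like, -0.43 in macrophage-like and -0.33 in T/NK-like cells. With library size alone it was -0.01, -0.17, -0.33, -0.54, -0.48 and -0.18 in the same order. Some changes are therefore also given relative to the median of all genes. That median moved with the filter on low counts as well. With edgeR's filterByExpr, which kept 6152 genes, it was -0.42 in endothelial-like and -0.16 in myoepithelial-like cells. The relative changes are thus a description and not corrected values.

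Egfr, the receptor of EGF itself, was highest in fibroblast-like cells. There the lowest of 7 mice had 59.1 CPM, the median was 144 CPM and the highest 164 CPM, for a mean of 115 ± 46.1 CPM (SD, n = 7). In tumor-like cells the 7 mice had 10.4 CPM at the lowest, 32.6 CPM at the median and 35.6 CPM at the highest (27.1 ± 10.1, SD, n = 7). The 2 classes did not overlap, and fibroblast-like cells were higher in 7 of 7 mice. The log2 change was 1.83 (SE 0.28, adjusted p = 7.13e-09), with 1.75 in the CB series alone (adjusted p = 0.000355) and 2.12 in the WT series alone (adjusted p = 5.94e-06). In the fibroblast-like cells that held fewer than 2 markers of each other list except the tumor list, which this check did not use, 66 of the 102 Egfr UMIs remained in 49.8% of the total UMIs, at 131.5 CPM against 101.2 CPM in all of them, both pooled over mice.

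Myoepithelial-like cells had the next highest mean of Egfr, 71.8 ± 63.3 CPM (SD, n = 5), from 17 UMIs. Mice 1, 4, 5, 7 and 8 had 107, 31.8, 161, 0 and 59.5 CPM. This spread covered the whole range of the tumor-like cells, and the difference from them did not pass the test (log2 change 0.64, SE 0.45, adjusted p = 0.328), although it did with DESeq2 size factors (1.495, adjusted p = 0.0227) and with DESeq2 itself (1.54, adjusted p = 0.00863). The difference of fibroblast-like from myoepithelial-like cells was at the threshold (log2 change 1.19, adjusted p = 0.0495).

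Hormone-sensing-like cells, the luminal cells that carry hormone receptors, had less Egfr than tumor-like cells. Their mice had 0 to 17.8 CPM with a median of 3.53 CPM (5.61 ± 7.02, SD, n = 7), lower in 7 of 7 mice. The log2 change was -2.35 (SE 0.39, adjusted p = 3.18e-07). In the WT series alone it was -1.54 and no longer passed (adjusted p = 0.255). Macrophage-like cells had 2 UMIs of Egfr in all and T/NK-like cells 3, with log2 changes of -3.97 (adjusted p = 2.26e-08) and -3.53 (adjusted p = 9.07e-08). Both lay below the 11.5 to 27.5 CPM of the barcodes under 200 genes in 7 of 7 mice.

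In endothelial-like cells no Egfr UMI was found in 97033. edgeR called Egfr lower there (log2 change -6.43, SE 2.17, adjusted p = 0.0349), and a count of 0 allows up to 30.9 CPM. Tumor-like cells of the same mice 4, 5 and 8 had 35.6, 35.6 and 33.7 CPM, or 35.5 CPM pooled from 91 UMIs. The limit was 1.15-fold below that pooled level. This margin leaves out the counting error of the 91 UMIs, so no difference was bounded. The call was lost in 15 of 23 alternative settings (adjusted p up to 0.491), among them without mouse 2, 4, 5 or 8 (adjusted p = 0.0535, 0.248, 0.217 and 0.13).

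Erbb2, the ligand-less partner of the family, had its highest mean in hormone-sensing-like cells. The 7 mice had 41.8, 33.5, 11.2, 30.7, 29.6, 12.6 and 0 CPM in mice 1, 2, 3, 4, 5, 7 and 8 (22.8 ± 15.0, SD, n = 7). Tumor-like cells had a narrow range, 8.31 CPM at the lowest, 12.7 CPM at the median and 15.5 CPM at the highest (12.2 ± 2.35, SD, n = 7). The hormone-sensing-like cells were higher in 4 of 7 mice, and the difference did not pass the test (log2 change 0.85, SE 0.34, adjusted p = 0.0566). It passed with library size alone (1.08, adjusted p = 0.00916), with DESeq2 size factors (1.04, adjusted p = 0.0125) and in the CB series alone (1.05, adjusted p = 0.0467).

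Outside these 2 epithelial classes Erbb2 was near the limit of detection. Fibroblast-like cells had 6 UMIs, macrophage-like cells 4, T/NK-like cells 3, myoepithelial-like cells 1 and endothelial-like cells 0. Erbb2 was lower than in tumor-like cells in macrophage-like cells (log2 change -1.995, SE 0.62, adjusted p = 0.00618) and in T/NK-like cells (log2 change -2.42, SE 0.66, adjusted p = 0.00145). The macrophage call was lost without mouse 7 (adjusted p = 0.0604), and both were lost in the WT series alone (adjusted p = 0.382 and 0.496). The barcodes under 200 genes had 12.4 ± 7.42 CPM of Erbb2 (SD, n = 7), about the level of tumor-like cells, which were above them in 3 of 7 mice.

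Erbb3, the receptor with weak kinase activity that binds neuregulins, was higher in hormone-sensing-like than in tumor-like cells. The lowest hormone-sensing-like mouse had 47.4 CPM, the median was 52.9 CPM and the highest 78.3 CPM (56.5 ± 11.0, SD, n = 7). Tumor-like cells had 16.5 CPM at the lowest, 27.4 CPM at the median and 45.5 CPM at the highest (28.8 ± 9.60, SD, n = 7). The ranges did not overlap, and the order held in 7 of 7 mice. The log2 change was 0.68 (SE 0.26, adjusted p = 0.0489), or 0.92 relative to the median of all genes. It was just past the threshold and was lost without mouse 3 (0.52, adjusted p = 0.205) or mouse 4 (0.71, adjusted p = 0.141), and within the CB (0.80, adjusted p = 0.055) and WT (0.59, adjusted p = 0.749) series.

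Erbb3 was lower than in tumor-like cells in fibroblast-like cells (4 UMIs, log2 change -2.70, SE 0.56, adjusted p = 3.04e-05), macrophage-like cells (4 UMIs, -3.20, SE 0.54, adjusted p = 1.54e-07) and T/NK-like cells (8 UMIs, -2.38, SE 0.46, adjusted p = 5.5e-06). The last call was lost in the WT series alone (-1.62, adjusted p = 0.109). Myoepithelial-like cells had 4 UMIs of Erbb3 (8.74 ± 12.1 CPM, SD, n = 5) and did not pass (adjusted p = 0.0996). Endothelial-like cells had 1 UMI. The barcodes under 200 genes had 20.9 ± 9.74 CPM (SD, n = 7), and hormone-sensing-like cells lay above them in 7 of 7 mice.

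Erbb4, the other neuregulin receptor, had 24 UMIs in 15047 cells and was the sparsest member. Of these, 18 were in tumor-like cells, in 5 of 7 mice, at 0 to 8.31 CPM with a median of 2.53 CPM (3.22 ± 3.27, SD, n = 7). Barcodes under 200 genes had 3.65 ± 5.0 CPM (SD, n = 7), and tumor-like cells were above them in 3 mice and below them in 3. The highest mean, 3.96 CPM in myoepithelial-like cells, was 1 UMI of mouse 8. No UMI was found in fibroblast-like, endothelial-like, macrophage-like or T/NK-like cells. edgeR called Erbb4 lower than in tumor-like cells in 3 of these classes (adjusted p = 0.0363, 0.0195 and 0.0189 in fibroblast-like, macrophage-like and T/NK-like cells), but without its 18 tumor-like UMIs it would have been left out by the filter. A count of 0 allows up to 2.98, 2.07 and 2.41 CPM there, against a pooled level of 2.24 CPM in tumor-like cells. In macrophage-like cells the limit was 1.08-fold below that level, which rests on 18 UMIs with their own counting error. In the others the limit was above it. No difference was thus bounded in any of the 3 classes at this depth.

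**Figure D1:**
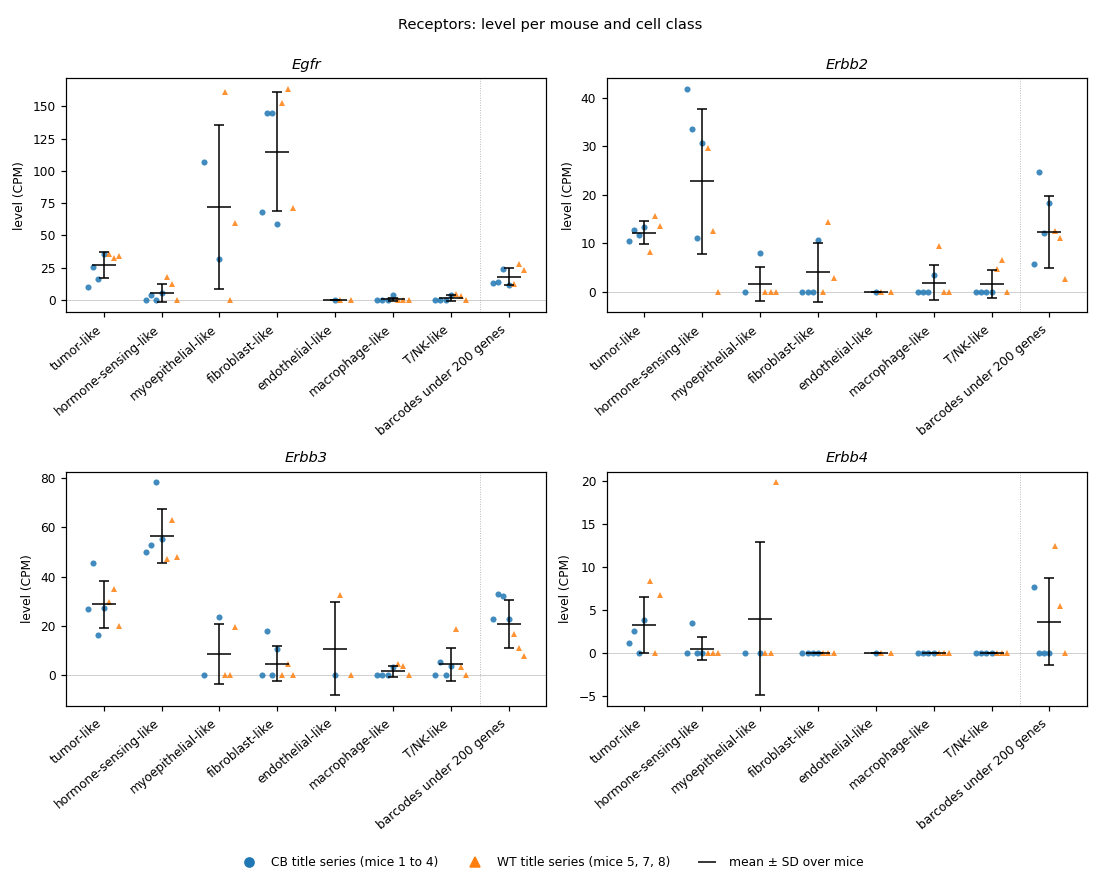
Level of the 4 receptors in CPM (linear vertical axis, own range for each gene) in each mouse, by cell class and in barcodes with under 200 genes; points are mice, marked by title series, and bars give the mean ± SD over mice. Egfr lies at 59.1 to 164 CPM in fibroblast-like cells, above every tumor-like value, and Erbb3 at 47.4 to 78.3 CPM in hormone-sensing-like cells, above every tumor-like value.

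Hbegf, which encodes HB-EGF, was the most deeply counted member, with 7070 of its 8990 UMIs in tumor-like cells. There the 7 mice had 581 CPM at the lowest, 821 CPM at the median and 1790.0 CPM at the highest (934 ± 412, SD, n = 7), and mouse 3 stood apart at the top. Endothelial-like cells had a similar level from 112 UMIs, with 808, 852 and 1821 CPM in mice 4, 5 and 8 (1160.0 ± 573, SD, n = 3). They were above tumor-like cells of the same mouse in 1 of 3 mice. The direction of that difference depended on the scaling: the log2 change was -0.93 with TMM (SE 0.36, adjusted p = 0.0711), -0.08 with library size alone and 0.02 with DESeq2 size factors, and relative to the median of all genes it was 0.33.

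The other classes had less Hbegf than tumor-like cells. Hormone-sensing-like cells had 226 to 1042 CPM with a median of 353 CPM (465 ± 296, SD, n = 7) and were lower in 7 of 7 mice (log2 change -1.41, SE 0.24, adjusted p = 3.62e-07). In the CB series alone the change was -1.79 (adjusted p = 1.92e-11), and in the WT series alone it was -0.64 and did not pass (adjusted p = 0.439). Myoepithelial-like cells had 192, 517, 514, 382 and 476 CPM in mice 1, 4, 5, 7 and 8, below tumor-like cells in 5 of 5 mice and without overlap (log2 change -1.84, SE 0.31, adjusted p = 6.53e-07). Relative to the median of all genes this change was -1.09.

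Fibroblast-like cells had 81.7 to 426 CPM of Hbegf with a median of 126 CPM (168 ± 117, SD, n = 7), all below the tumor-like values (log2 change -2.59, SE 0.27, adjusted p = 5.48e-16). Macrophage-like cells had 34.2 to 169 CPM (log2 change -3.47, SE 0.28, adjusted p = 2.02e-23) and T/NK-like cells 0 to 194 CPM (log2 change -3.17, SE 0.28, adjusted p = 1.56e-20). Barcodes under 200 genes had 339 ± 203 CPM (SD, n = 7). Macrophage-like and T/NK-like cells lay below them in 7 of 7 mice and fibroblast-like cells in 6 of 7, whereas tumor-like cells lay above them in 7 of 7. Hormone-sensing-like cells lay above them in 5 of 7 mice, but their pooled level was only 1.04 times that of the barcodes. Myoepithelial-like cells lay above them in 4 of 5 mice (1.61 times, pooled) and endothelial-like cells in 3 of 3 (4.09 times). Mouse 3, which had the most Hbegf in tumor-like cells, also had the most in these barcodes, 780 CPM. The 2 macrophage-like clusters were also read apart. Pooled over mice, cluster 2 had 72.45 CPM (98 UMIs, 1779 cells) and cluster 15 had 343.6 CPM (33 UMIs, 141 cells). Over mice with at least 10 of the cells they had 66.1 ± 46.0 CPM (SD, n = 7) and 228.9 ± 218.9 CPM (SD, n = 4). These spreads overlapped, and no test was made.

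Hbegf was also read in each tumor-like cluster. Cluster 7, led by Edn1, Csn1s1 and Krt14, had 1182 ± 478 CPM (SD, n = 7), cluster 0 had 1051 ± 525 CPM (SD, n = 7), cluster 9, led by interferon-induced genes, had 944 ± 308 CPM (SD, n = 6), and cluster 1 had 766 ± 491 CPM (SD, n = 7). These ranges overlapped, and no test was made because the clusters were built from the same cells. For Egfr, cluster 0 stood at 43.6 ± 21.3 CPM, cluster 7 at 29.9 ± 22.7 CPM and cluster 1 at 15.8 ± 12.9 CPM (SD, n = 7 each), with 24.4 ± 24.3 CPM for cluster 9 (SD, n = 6). Pooled over mice, clusters 0 and 1 had 34.3 and 17.5 CPM.

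Tgfa, which encodes TGF-alpha, had 74 UMIs. Hormone-sensing-like cells had 0 to 18.9 CPM with a median of 8.02 CPM (8.35 ± 7.40, SD, n = 7) and tumor-like cells 1.19 to 27.0 CPM with a median of 4.14 CPM (6.90 ± 9.05, SD, n = 7). The difference did not pass (log2 change 0.97, SE 0.46, adjusted p = 0.129), except with library size alone (1.21, adjusted p = 0.0482). The highest mean was in endothelial-like cells, but it rested on 5 UMIs, with 0, 65.5 and 94.2 CPM in mice 4, 5 and 8. Of the 5, 1 was left in the 95 of 144 cells with fewer than 2 markers of each other list but the tumor list, at 19.3 CPM against 43.8 CPM in all of them, pooled over mice. The log2 change from tumor-like cells was 2.30 (SE 0.90, adjusted p = 0.0837), or 3.57 relative to the median of all genes. It passed with library size alone (2.93, adjusted p = 0.0409), with DESeq2 size factors (3.05, adjusted p = 0.0284) and with DESeq2 itself (3.32, adjusted p = 0.0232).

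No Tgfa UMI was found in 1007574 UMIs of fibroblast-like and 1448751 UMIs of macrophage-like cells, which allows up to 2.98 and 2.07 CPM. The level was at least 1.46-fold lower than in tumor-like cells in the former and at least 2.1-fold lower in the latter (edgeR adjusted p = 0.00617 and 0.00438). The fibroblast call was lost without mouse 8 (adjusted p = 0.0683), and neither call passed within a title series. T/NK-like cells had 4 UMIs and did not pass (adjusted p = 0.743).

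Ereg, which encodes epiregulin, had 31 UMIs in all, most of them in fibroblast-like and myoepithelial-like cells. Myoepithelial-like cells had 6 UMIs, at 0, 15.9, 0, 84.9 and 39.6 CPM in mice 1, 4, 5, 7 and 8 (28.1 ± 35.7, SD, n = 5). The log2 change from tumor-like cells, which had 4 UMIs, was 3.42 (SE 0.90, adjusted p = 0.00289), with 3 of 5 mice higher, and the call was lost without mouse 4 (adjusted p = 0.0652). Of the 6 UMIs, 3 were in cells with at least 2 fibroblast markers and 2 in cells with at least 2 erythroid markers, and 1 UMI was left in the 150 of 278 cells that held fewer than 2 markers of each other list but the tumor list. In fibroblast-like cells all 17 UMIs came from mouse 8, at 48.6 CPM, and the other 6 mice had none. edgeR called this class higher (log2 change 2.76, SE 0.75, adjusted p = 0.00173), but the gene passed the filter only through this class, the level was higher in 1 of 7 mice, and without mouse 8 too few UMIs were left for a test. Of the 17 UMIs, 13 were in the 176 cells with at least 2 erythroid markers, which held 21.3% of the UMIs of the class, and whether these were mixed barcodes was not tested. DESeq2 called Ereg in neither class (adjusted p = 0.535 and 0.643).

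Btc, which encodes betacellulin, was mostly found in tumor-like and hormone-sensing-like cells, which held 137 and 42 of its 192 UMIs. Tumor-like cells had 6.74 CPM at the lowest, 19.0 CPM at the median and 21.5 CPM at the highest (15.9 ± 5.22, SD, n = 7), above the barcodes under 200 genes in 7 of 7 mice. Hormone-sensing-like cells had 0 to 71.9 CPM with a median of 19.4 CPM (24.7 ± 22.8, SD, n = 7), and the highest value was 3 UMIs of mouse 8. The difference between these classes did not pass (log2 change -0.20, SE 0.35, adjusted p = 0.759).

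No Btc UMI was found in macrophage-like or T/NK-like cells. Their levels were at least 8.22-fold and at least 7.06-fold lower than in tumor-like cells (adjusted p = 4e-07 and 2.3e-07), and both calls held in each title series alone. Fibroblast-like cells had 5 UMIs (6.43 ± 8.58 CPM, SD, n = 7) and were lower (log2 change -1.72, SE 0.60, adjusted p = 0.0181). This call was lost without mouse 2, 4, 7 or 8 (adjusted p = 0.0798, 0.0936, 0.0647 and 0.0798) and in the CB and WT series alone (adjusted p = 0.156 and 0.319). Myoepithelial-like and endothelial-like cells had 1 UMI each.

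Nrg1, which encodes the neuregulin that binds Erbb3 and Erbb4, had its highest level in myoepithelial-like cells, with 22 UMIs. Mice 1, 4, 5, 7 and 8 had 85.5, 63.6, 0, 42.4 and 178 CPM (74.0 ± 66.3, SD, n = 5), against 2.55 to 20.2 CPM with a median of 6.93 CPM in tumor-like cells (8.58 ± 6.11, SD, n = 7). The class was higher in 4 of 5 mice, and the log2 change was 2.29 (SE 0.52, adjusted p = 0.000361), or 3.03 relative to the median of all genes. It was 3.39 in the CB series alone (adjusted p = 6.13e-05) and 1.41 in the WT series alone, which did not pass (adjusted p = 0.413).

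This result rested on cells that also held markers of other classes. When cells with at least 2 different markers of another list were left out, the tumor list not being used for this, 150 of 278 myoepithelial-like cells with 34.5% of the UMIs remained, and they held 1 of the 22 Nrg1 UMIs. The log2 change was then -0.08 (adjusted p = 1). Of the 22 UMIs, 15 were in the 92 cells with at least 2 fibroblast markers, which held 49.9% of the UMIs of the class, and 10 were in the 19 cells with at least 2 markers of the erythroid list, which held 12.8%. A cell could be in both sets. Fibroblast-like cells themselves had 11 UMIs of Nrg1 (6.78 ± 8.82 CPM, SD, n = 7) and did not differ from tumor-like cells by the test (log2 change -0.14, SE 0.57, adjusted p = 0.882). Whether these were mixed barcodes was not tested.

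In hormone-sensing-like cells Nrg1 had 5 UMIs, and the values of 7 mice were 0 except for 8.37, 1.34 and 47.9 CPM in mice 1, 4 and 8. edgeR called it lower than in tumor-like cells (log2 change -1.74, SE 0.61, adjusted p = 0.0287), although the means over mice were nearly equal (8.24 and 8.58 CPM, against 1.83 and 6.96 CPM pooled over mice), and the call was lost without mouse 2, 3, 4, 5 or 7 (adjusted p = 0.0955, 0.0662, 0.15, 0.106 and 0.134). T/NK-like cells had no UMI in 1245024, which allows up to 2.41 CPM and is at least 2.89-fold lower than tumor-like cells (adjusted p = 0.00121). This call was lost in the CB series alone (adjusted p = 0.0787). Macrophage-like cells had 3 UMIs and did not pass (adjusted p = 0.0552). Barcodes under 200 genes had 6.99 ± 5.21 CPM (SD, n = 7), close to the tumor-like level.

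**Figure D2:**
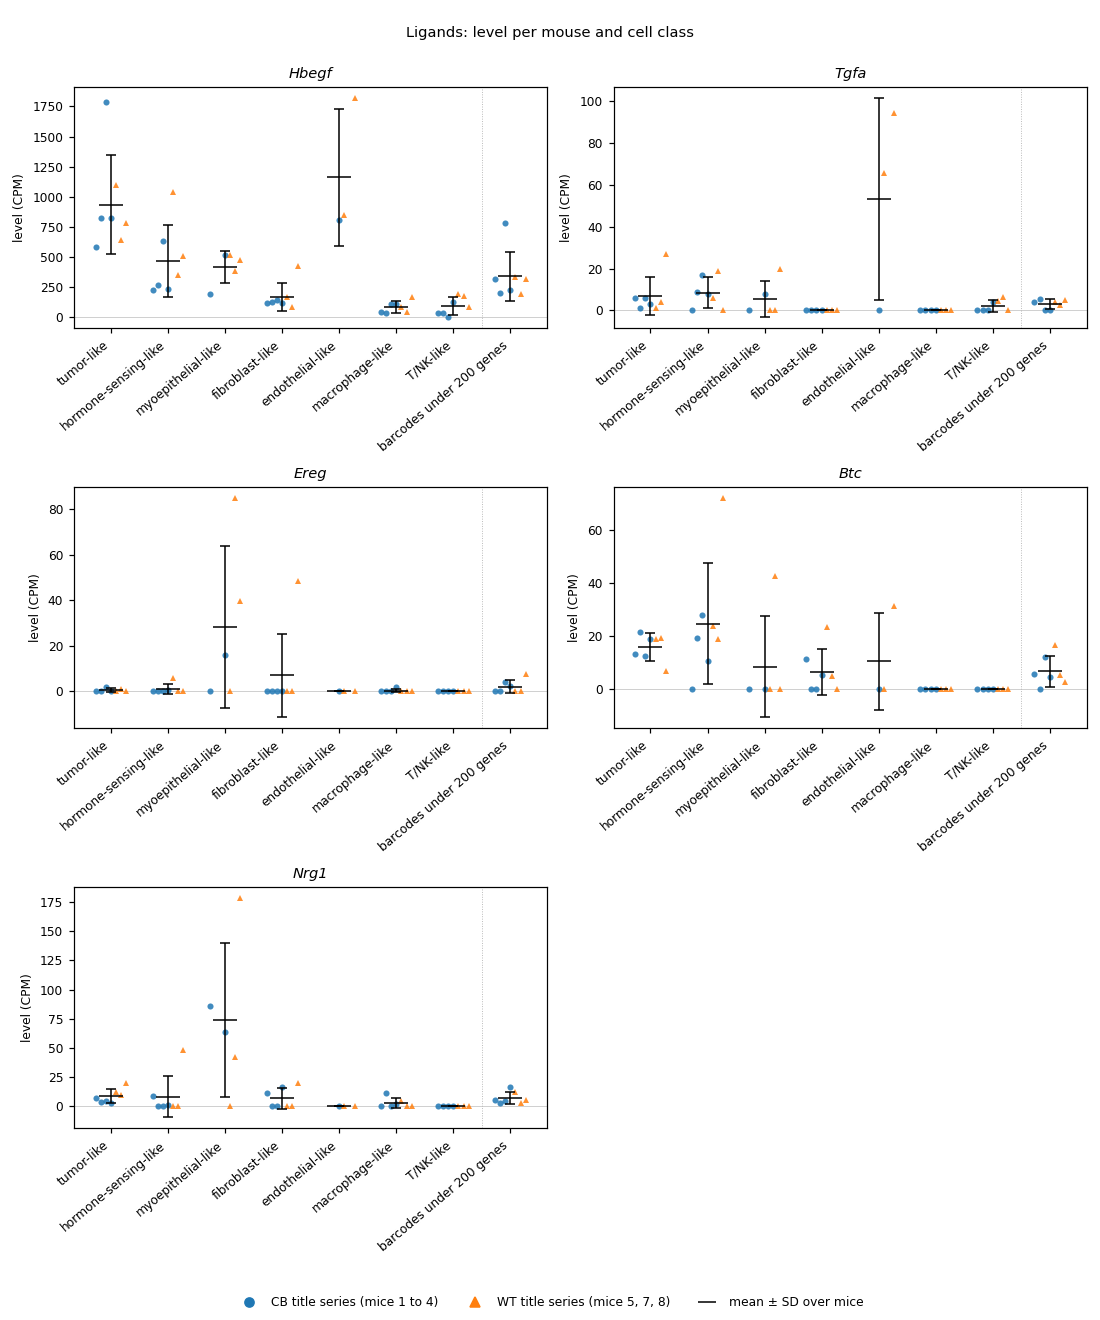
Level of the 5 ligands in CPM (linear vertical axis, own range for each gene) in each mouse, by cell class and in barcodes with under 200 genes; points are mice, marked by title series, and bars give the mean ± SD over mice. Hbegf is highest in tumor-like and endothelial-like cells (means of 934 and 1160.0 CPM), and Ereg in fibroblast-like cells comes from mouse 8 alone.

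Set against tumor-like cells, the members divided by class. In fibroblast-like cells 2 of 9 members were called higher (Egfr and Ereg) and 5 lower (Erbb3, Erbb4, Hbegf, Tgfa and Btc), beside 12.7% of all genes called higher and 21.4% lower. In macrophage-like cells 7 of 9 were called lower and 0 higher, beside 24.9% lower and 12.6% higher of all genes. The 2 without a call were Ereg and Nrg1. There 8 members had an unadjusted p under 0.05, and DESeq2 called 4, all lower. In T/NK-like cells 7 of 9 were called lower and 0 higher, beside 25.5% and 12% of all genes, and the 2 without a call were Tgfa and Ereg. There 7 had an unadjusted p under 0.05, and DESeq2 called 6, all lower. In fibroblast-like cells DESeq2 called 3, and edgeR with DESeq2 size factors called 2 higher and 3 lower. Over all genes DESeq2 called 2773 higher and 1325 lower in fibroblast-like, 2336 and 2190 in macrophage-like and 2123 and 2723 in T/NK-like cells. The median log2 change of the members was -1.72 in fibroblast-like, -3.24 in macrophage-like and -3.17 in T/NK-like cells. With the members that had no UMI set at their bound, it was -0.55, -1.995 and -2.38. These counts include Ereg and Erbb4, which passed the filter through 1 class, and for Erbb4 no difference was bounded in fibroblast-like, macrophage-like or T/NK-like cells. Among the other 7 members, 1 was called higher and 4 lower in fibroblast-like cells, 6 lower in macrophage-like cells and 6 lower in T/NK-like cells.

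In the other comparisons, as in fibroblast-like cells, the counts of members called moved with the scaling. In hormone-sensing-like cells 1 of 9 was called higher (Erbb3) and 3 lower (Egfr, Hbegf and Nrg1), beside 7.07% of all genes higher and 14.1% lower, and the median log2 change of the members was -0.20. With library size alone 3 were higher (Erbb2, Erbb3 and Tgfa) and 2 lower (median 0.009), and with DESeq2 size factors 2 were higher and 2 lower. All genes called were 1771 higher and 1616 lower with the former, and 1678 and 1727 with the latter. In myoepithelial-like cells 2 of 9 were called higher (Ereg and Nrg1) and 1 lower (Hbegf), beside 5.02% and 14.1% of all genes, with a median of -0.51. Among the 7 members other than Ereg and Erbb4, 1 was called higher and 1 lower. Both Ereg and Nrg1 had 1 UMI left in the cells with fewer than 2 markers of each other list but the tumor list. With DESeq2 size factors 3 were higher, Egfr among them, and 1 lower. In endothelial-like cells 1 of 9 was called lower (Egfr) and 0 higher, beside 7.99% and 3.32% of all genes, with a median of -2.55. Of the 9, 5 had no UMI there, and with these at their bound the median was 0. With library size alone or DESeq2 size factors the count turned, to 1 higher (Tgfa, adjusted p = 0.0409 and 0.0284) and 0 lower, and Egfr was no longer called. In that class 3 had an unadjusted p under 0.05, and DESeq2 called Tgfa alone, as higher. Over all genes DESeq2 called 1021 higher and 176 lower there.

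The split of all calls into higher and lower moved with the scaling. Of all genes called, 33.4% were higher in hormone-sensing-like cells with TMM, 52.3% with library size alone and 49.3% with DESeq2 size factors. In the same order the shares were 26.3%, 66% and 78.9% in myoepithelial-like, 37.2%, 41.6% and 64.1% in fibroblast-like, and 29.3%, 74.8% and 78.7% in endothelial-like cells. For macrophage-like cells they were 33.7%, 30.6% and 47.7%, and for T/NK-like cells, which moved least, 32%, 40.4% and 39.4%. No member that was called with TMM changed sign with either of the other scalings.

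**Figure D3:**
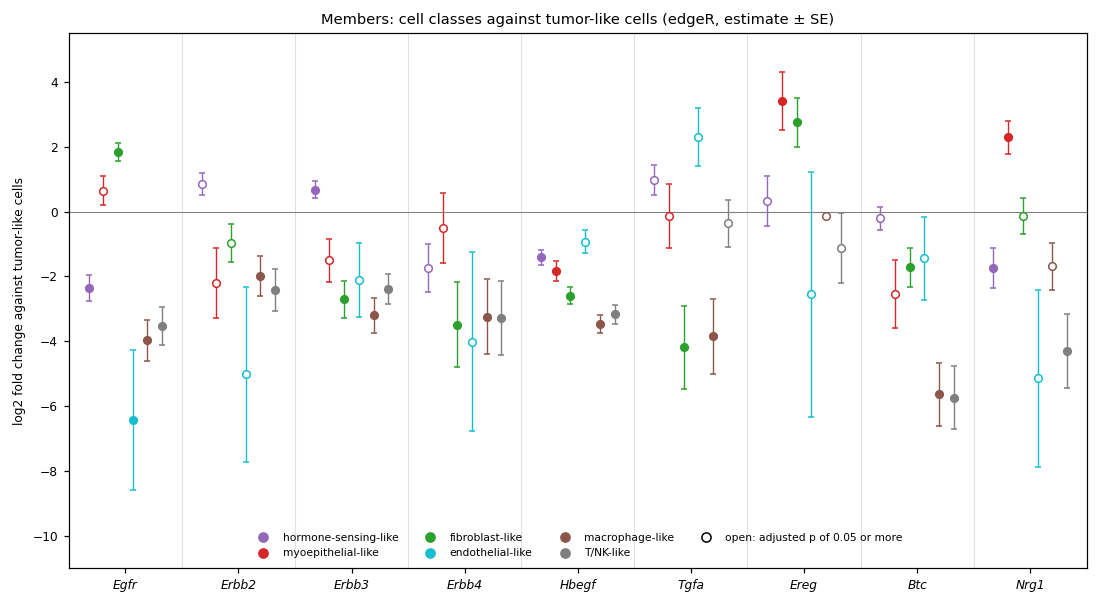
Log2 change of the 9 members in each of 6 cell classes against tumor-like cells (edgeR estimate, vertical axis; bars are ± SE, not drawn for Ereg in macrophage-like cells, where p was close to 1); filled points have an adjusted p under 0.05. The filled points for fibroblast-like cells lie above 0 for Egfr (1.83) and Ereg (2.76) and below 0 for Erbb3, Erbb4, Hbegf, Tgfa and Btc. Where a class had no UMI of a gene, the point is the fitted estimate and is not marked apart. Erbb4 and Tgfa in fibroblast-like cells are such points, and for Erbb4 no difference was bounded.

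The classes were ordered by mean level for each member, and those next to each other were compared. Of 54 such neighbouring pairs, 9 passed the test. In 7 of the 54 neither class had a UMI of the gene, so no call was possible, which left 47 pairs. Each of the comparisons used called 3.64% to 37.5% of all genes. For Egfr the pairs that passed were fibroblast-like over myoepithelial-like cells, a comparison that called 10.9% of all genes, and tumor-like over hormone-sensing-like cells (adjusted p = 3.18e-07). For Erbb3 it was hormone-sensing-like over tumor-like, and for Hbegf tumor-like over hormone-sensing-like. For Tgfa it was T/NK-like over fibroblast-like (adjusted p = 0.0429, 32.7% of all genes called), from 4 UMIs, with a mean of 2.20 CPM that lies below the 2.98 CPM a count of 0 allows in fibroblast-like cells. It was for Ereg fibroblast-like over hormone-sensing-like (adjusted p = 0.0376, 28.1%), all from the 17 UMIs of mouse 8 that also carried the gene past the filter, and for Btc fibroblast-like over macrophage-like (adjusted p = 0.0276, 25.5%). For Nrg1 both myoepithelial-like over tumor-like and tumor-like over hormone-sensing-like passed. None of the neighbouring pairs of Erbb2 or Erbb4 passed. The order and the test used the same values, so this is a description.

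Other clusters lay outside the 7 classes. A cluster of 407 cells was named erythroid-like from its globins, but it also held tumor markers. PYMT was at 2791.5 CPM there, against 776.7 to 2191.3 CPM in the tumor-like clusters. Csn3 was at 18791.6 CPM, against 11593.3 to 35739.0 CPM. Whether these were tumor cells with free globin RNA was not tested, so the levels are not ascribed to red cells. In this cluster Erbb3 was at 48.7 CPM (16 UMIs), Egfr at 30.4 CPM (10 UMIs), Nrg1 at 18.3 CPM (6 UMIs) and Hbegf at 667 CPM (219 UMIs) over all mice. In 715 cells of the monocyte or dendritic cluster, Nrg1 was at 16.4 CPM from 8 UMIs, and Egfr, Tgfa and Btc had none. Both levels of Nrg1 were above the 6.96 CPM of tumor-like cells, pooled alike, and no test was made. The spread over mice with at least 10 of the cells was wider than the mean in both. Nrg1 was at 11.4 ± 22.9 CPM (SD, n = 4) in the erythroid-like and 14.1 ± 15.0 CPM (SD, n = 7) in the monocyte or dendritic cluster. In 475 B-like cells Hbegf was at 172.5 CPM (38 UMIs) and no UMI of Egfr, Erbb4, Ereg or Btc was found.

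Other genes of the pathway were taken from a list of 33, of which 32 could be tested. Among ligands of the list, Areg, which encodes the Egfr ligand amphiregulin, was at 795 CPM in hormone-sensing-like and 59.2 CPM in tumor-like cells (means over 7 mice), higher in 7 of 7 (log2 change 3.54, SE 0.26, adjusted p = 4.81e-27). Nrg4, another neuregulin, was at 18.0 and 1.22 CPM (log2 change 3.11, SE 0.50, adjusted p = 1.43e-07). Phlda1, which is induced by growth factor signaling, was lower in the same comparison, at 369 and 2021 CPM (log2 change -2.82, SE 0.24, adjusted p = 2e-21). In hormone-sensing-like cells 5 of the 32 were called higher and 12 lower, beside 7.07% and 14.1% of all genes, and the median log2 change of the list was -0.78 beside -0.24 for all genes.

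In fibroblast-like cells 6 of 32 were called higher and 9 lower, beside 12.7% and 21.4% of all genes, with a median of -0.27 beside -0.42 for all genes. With DESeq2 size factors the balance turned, to 9 higher and 6 lower with a median of 0.24, and that of all genes turned too, to 2996 higher and 1678 lower with a median of 0.05. Dusp6, an ERK phosphatase and feedback gene, was at 52.1 CPM against 446 CPM (log2 change -3.13, SE 0.29, adjusted p = 7.95e-20). Epgn, the ligand epigen, and Egf were called lower with no UMI in fibroblast-like cells (adjusted p = 0.00537 and 0.0216). The size of the change is known only as a bound for Epgn, at least 2.8-fold lower. For Egf the limit was 1.04-fold below the pooled tumor-like level, which rests on 25 UMIs, so no difference was bounded.

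In myoepithelial-like cells 1 of 32 was called higher and 8 lower, beside 5.02% and 14.1% of all genes, with a median of -0.81 beside -0.75 for all genes. With DESeq2 size factors the balance turned, to 5 higher and 2 lower (median -0.07), and with library size alone it was 3 and 3. All genes turned as well, to 1454 higher and 389 lower (median 0.03) and to 1187 and 612 (median -0.17). Rhbdf2, a cofactor of ADAM17, was lower (log2 change -3.18, SE 0.96, adjusted p = 0.00992), as was Fosl1, an AP-1 subunit (-2.65, SE 0.60, adjusted p = 0.000362), and the call of Rhbdf2 was lost with the other scalings (adjusted p = 0.0959 and 0.152). Cblb, a ubiquitin ligase that acts on the receptors, was called lower with no UMI (adjusted p = 0.0442), but the limit of 10.8 CPM lies above its pooled tumor-like level, so a difference was not detectable at this depth. In endothelial-like cells 1 of 32 was called higher and 4 lower, beside 3.32% and 7.99% of all genes, with a median of -0.90 beside -1.27. This balance also turned, to 4 higher and 2 lower with DESeq2 size factors (median 0.005) and to 3 and 2 with library size alone (median -0.08), as did that of all genes, to 843 and 228 (median -0.46) and to 789 and 266 (median -0.54). Areg was lower (log2 change -3.28, SE 1.15, adjusted p = 0.0452), a call lost with library size alone and DESeq2 size factors (adjusted p = 0.296 and 0.356). Errfi1, an inhibitor of Egfr, was also lower (log2 change -2.61, SE 0.40, adjusted p = 4.52e-08), and Spry1, a feedback inhibitor of receptor signaling, was higher, at 142 CPM against 7.53 CPM in the same 3 mice (3.04, SE 0.62, adjusted p = 8.1e-05).

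In macrophage-like cells 6 of 32 were called higher and 15 lower, beside 12.6% and 24.9% of all genes, with a median of -1.40 beside -0.43 for all genes. Spry4, a feedback inhibitor, had no UMI there and was at least 5.58-fold lower (adjusted p = 1.37e-05). Lrig3, which the list groups with negative regulators, had none either and was at least 3.72-fold lower (adjusted p = 0.000255). Fosl1 was lower by log2 -3.74 (SE 0.46, adjusted p = 1.13e-12). In T/NK-like cells 5 were called higher and 17 lower, beside 12% and 25.5% of all genes, with a median of -1.74 beside -0.33. Rhbdf1, a relative of Rhbdf2, was lower there (log2 change -4.10, SE 0.56, adjusted p = 1.28e-10), as was Fosl1 (-3.65, SE 0.48, adjusted p = 4.76e-11), and the neuregulin Nrg2 had no UMI and was at least 1.7-fold lower (adjusted p = 0.00982). All 6 comparisons share the tumor-like sums. With the list genes that had no UMI at their bound, the medians were -0.62 in myoepithelial-like, -0.03 in fibroblast-like, 0 in endothelial-like, -1.17 in macrophage-like and -1.45 in T/NK-like cells.

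**Figure D4:**
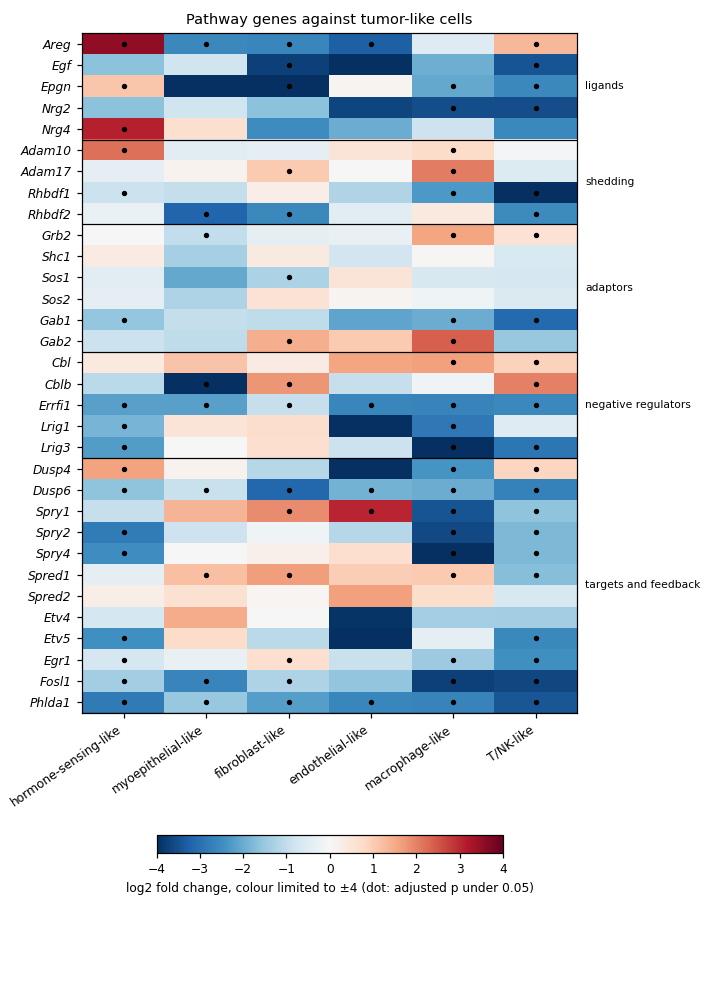
Log2 change of 32 other pathway genes (rows, grouped by role) in 6 cell classes against tumor-like cells (columns), as a colour limited to ±4; a dot marks an adjusted p under 0.05 by edgeR. Areg (3.54) and Nrg4 (3.11) stand out in hormone-sensing-like cells, and 17 genes of the list carry a call for lower in T/NK-like cells. Genes with no UMI in a class are drawn at the fitted estimate and are not marked apart.

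The genes whose levels followed a member most closely were sought among 10906 genes over the 43 sums of a mouse and a class, for the members with at least 100 UMIs in those sums. These sums share libraries and differ in depth, so the correlations describe them and carry no test. For Egfr they were Pcsk5, Ism1 and Tgfbr3 (Pearson r of 0.878, 0.867 and 0.861). For Erbb2 they were Slc44a3, Cep126 and Grhl2 (0.883, 0.85 and 0.845), and for Erbb3 Esrp2, Arhgef16 and Tgm1 (0.884, 0.853 and 0.85). For Hbegf they were Tm4sf1, Hspb1 and Ndrg1 (0.834, 0.83 and 0.825), and for Btc Fam187b, Ovol1 and Thsd4 (0.777, 0.743 and 0.742).

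In the mm10 build (GENCODE annotation, GRCm38), Egfr lies on the plus strand of chromosome 11 from 16752203 to 16918158 and Erbb2 on that of the same chromosome from 98412470 to 98437716. Erbb3 lies on the minus strand of chromosome 10 from 128567523 to 128589652, Erbb4 on that of chromosome 1 from 68032186 to 69108059, and Nrg1 on that of chromosome 8 from 31814551 to 32884029. Ereg (plus strand, 91074622 to 91093646) and Btc (minus strand, 91357261 to 91402994) are both on chromosome 5, Tgfa is on the plus strand of chromosome 6 from 86195223 to 86275719, and Hbegf on the minus strand of chromosome 18 from 36504927 to 36515805. All 9 are protein coding. Exons of Erbb2 overlap those of Mien1 on the other strand, and exons of Tgfa, Ereg and Nrg1 overlap those of the annotated genes Gm43917, Gm19610 and Gm26578. The sources used here do not state whether strand was used in counting, so UMIs of these overlaps cannot be assigned with certainty.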

How the data were processed

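Drop-seq UMI counts of 7 control tumors were analyzed, 1 library per mouse. Reads had been mapped by the authors to mm10 plus the PyMT sequence, and they deposited whole counts of UMIs per gene and barcode, not normalized. The submitters' processing notes name STAR and FastQC, and the human builds GRCh37.p13 and hg19, which do not match the mouse symbols in the matrices. In 5 matrices there were no mitochondrial genes, and in the other 2 they were dropped here. The members and gene lists were chosen with earlier results of these data known.

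Barcodes with 200 to 6000 genes were kept (Python 3.11.15, numpy 2.4.6, scipy 1.17.1) and clustered in Seurat 5.3.0 with 586 variable genes (1 pathway gene was left out of 587), 20 principal components and a resolution of 0.6. This gave 16 clusters. With the 9 components of the study's methods there were 12 clusters and no myoepithelial or endothelial class. A cluster was named after the list whose markers had the highest mean log2 fold over the median cluster (5 CPM added, at least 1), with at least 3 markers in 10% of its cells and no other list having more markers among its 10 leading genes. These thresholds were set for this work with the data in hand. The study may have named the same cells otherwise. Doublets were left to the upper limit of genes, and an alternative left out cells with at least 2 different markers of another list, the tumor list apart.

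UMIs were summed per mouse and class (43 sums of at least 10 cells) and compared by edgeR 4.0.16 in R 4.3.3 (at least 20 UMIs in all, TMM, quasi-likelihood test, 1 fit of all 7 classes). The sums of a mouse come from the same animal, so the mouse was kept as a block. A log2 change had to have an adjusted p under 0.05 over all genes of its comparison. The scripts were tested on simulated data. Alternatives were other clusterings and cell limits, DESeq2 1.42.0, other scalings and filters, no block, only the classes compared, either title series by itself and leaving out each mouse. Intervals and limits cover counting error only. The genes named are the 9 members, the 3 list genes with the largest fitted change among those called per comparison and the 3 most alike genes of a member. Protein sequences were not used here.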

Additional observations from a re-analysis of the deposited data

Results flagged for a closer look

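In 29 sets of a member and a class with at least 10 UMIs, 6 had a mouse whose gap to the next, divided by the range, was above Dixon's limit (0.568 for 7 mice). The limit is set to flag about 1 in 20 sets of normally distributed values. That rate was not checked for sparse counts such as these, so 6 flags are not read as an excess. Hbegf was at 1790 CPM in tumor-like cells of mouse 3, next to 1098 CPM (gap over range 0.573), and at 779.5 CPM in its barcodes under 200 genes, next to 336.3 CPM (0.759). In fibroblast-like cells it was at 425.5 CPM in mouse 8, next to 164.2 CPM (0.760). The others rested on few UMIs of mouse 8: Tgfa at 26.96 CPM in tumor-like cells (4 UMIs, next 5.808 CPM), Ereg at 48.55 CPM in fibroblast-like cells (17 UMIs, next 0) and Btc at 71.91 CPM in hormone-sensing-like cells (3 UMIs, next 27.97 CPM). Mouse 8 had the fewest cells, 1133, but the most fibroblast-like cells, 401 of 1029, with 350171 of the 1007574 UMIs of that class.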

How the results depend on the processing

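The 29 calls of a member against tumor-like cells gave 630 values over 24 alternatives: 549 kept direction and call, 80 kept direction and lost the call, and 1 reversed. That one was Nrg1 in myoepithelial-like cells, at -0.075 without cells that held markers of another class than tumor. An alternative in which a member could not be tested gave no value and is not among the calls lost. Each Erbb4 call had 11 values. The Ereg call in fibroblast-like cells had 20, with none for the fit without mouse 8. Where a call was lost, the cause was not tested. Called members numbered 4 in hormone-sensing-like, 3 in myoepithelial-like, 7 in fibroblast-like, 1 in endothelial-like, 7 in macrophage-like and 7 in T/NK-like cells, and 9 neighbouring pairs passed. Without cells that held other markers, the counts were 2 in hormone-sensing-like, 1 in myoepithelial-like and 4 in fibroblast-like cells, and 4 pairs. Of 14752 genes, 1058 were then called higher and 2003 lower in hormone-sensing-like, 292 and 1138 in myoepithelial-like and 1470 and 3110 in fibroblast-like cells. With edgeR's filterByExpr, which left 2 members to test, the counts of members were 2, 1, 2, 0, 2 and 2 in the order above, and 3 pairs. In that order the 6152 genes gave 810, 781, 1491, 556, 1481 and 1474 calls for higher. Calls for lower were 1071, 801, 1506, 671, 1621 and 1784. With no filter on low counts, 0 members were called in endothelial-like cells, beside 535 of 31356 genes higher and 923 lower, and 5 pairs passed. DESeq2 called 3 in fibroblast-like and 4 in macrophage-like cells. Clustering on marker genes alone gave 4 calls in endothelial-like cells, and 0 were called there with at least 500 genes per cell or with only the 2 classes fitted. In the CB series alone 3 members were called in fibroblast-like and 0 in endothelial-like cells, and 5 pairs. Of 14525 genes, 1306 were called higher and 2343 lower in fibroblast-like, and 262 and 318 in endothelial-like cells. In the WT series alone the counts of members were 0, 1, 4, 0, 4 and 4 in the order above, and 0 pairs. In that order the 12672 genes tested gave 300, 317, 1427, 327, 1385 and 1100 calls for higher. Calls for lower were 347, 236, 962, 219, 1394 and 1229. The main fit had 1129 higher and 2252 lower of 15970 genes in hormone-sensing-like cells, so the calls of all genes fell there too.

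The sums of a mouse are paired, and without the replicate block 2 members were called in hormone-sensing-like and 0 in endothelial-like cells, and 5 pairs. It moved no other count by over 1.5 times.

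Leaving out each mouse in turn gave 2 to 5 calls in hormone-sensing-like (2 without mouse 4), 2 to 4 in myoepithelial-like, 3 to 7 in fibroblast-like (3 without mouse 8), 0 to 1 in endothelial-like (0 without mouse 2, 4 or 5), 6 to 7 in macrophage-like and 6 to 7 in T/NK-like cells, and 3 to 9 pairs (3 without mouse 4 and 5 without mouse 5). All genes called were 840 higher and 1455 lower in hormone-sensing-like cells without mouse 4. They were 1737 and 3358 in fibroblast-like cells without mouse 8. In endothelial-like cells they were 548 and 983 without mouse 2, 382 and 370 without mouse 4, and 420 and 532 without mouse 5. With 9 principal components the myoepithelial-like and endothelial-like comparisons gave no value. Depth limited Erbb4, Ereg and Tgfa, with 24, 31 and 74 UMIs, and every member but Hbegf in endothelial-like cells.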
